A study of Mus musculus with 8 samples.

Results

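Mouse Th17 cultures that received the lipopeptide PAM3CSK4 during polarization were compared with Th17 cultures that received no ligand. The members are 4 of the 8 libraries of the study and all 23366 genes of its count table, of which 11629 had enough counts to be tested. The Th17 + PAM3CSK4 group (replicates 3 and 4) was made from naive CD4+ T cells of C57BL/6 mice, taken from spleen and lymph nodes, activated with antibodies against CD3e and CD28, and cultured for 3 days with TGF-beta, IL-6 and 2 µg/ml PAM3CSK4. The Th17 group (replicates 1 and 2) had the same strain, tissue, activation, cytokines and time without PAM3CSK4. Th17 cultures with biglycan (replicates 7 and 8) and freshly isolated naive cells (replicates 1 and 2) shared the estimate of spread, and the biglycan libraries are also set beside PAM3CSK4 below. The sources used here give no age for the mice. The labels do not state whether both libraries of a group derive from different mice or different cultures. Each p-value therefore measures a spread that may be technical.

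Th17 cells are helper T cells that secrete IL-17A and IL-17F, arise under TGF-beta and IL-6 through STAT3, and defend mucosal surfaces. TLR2 is a pattern recognition receptor that pairs with TLR1 to bind triacylated bacterial lipopeptides, which PAM3CSK4 mimics, and with TLR6 to bind diacylated ones. The pair signals through MyD88, IRAK kinases and TRAF6 to NF-kB and to MAP kinases, and in T cells TLR2 has been described as a costimulatory receptor.

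Gene counts summed to 12533045 and 11107155 in the PAM3CSK4 libraries and to 11788948 and 10207664 in the Th17 libraries. Mitochondrial RNA took 14.3 and 14.7% of reads with PAM3CSK4, against 15.7 and 16.0% in Th17, and ribosomal RNA took 1.73 and 3.04% with PAM3CSK4, against 2.57 and 2.75% in Th17. The part of these differences in the results was not tested. All 7 CD4+ T cell markers were detected and none was called, with summed levels of 5362 to 5465 CPM (counts scaled to library size with TMM factors) with PAM3CSK4 and 5474 to 5667 CPM in Th17. Of 11 B cell markers 1 could be tested and their sum was 4.08 to 4.43 CPM with PAM3CSK4 and 2.80 to 3.55 CPM in Th17, with Fcer2a and Cr2 at 0. The 20 myeloid and dendritic cell markers summed to 204 CPM in both PAM3CSK4 libraries and 229 to 236 CPM in Th17. Most of that was the protease gene Ctss (198 and 197 CPM with PAM3CSK4, 220.4 and 226 CPM in Th17), while Lyz1, S100a8, S100a9, Tyrobp, Clec9a, Xcr1 and Siglech were at 0 in all 4 libraries. The CD8 T and NK cell markers summed to 304 to 342 CPM with PAM3CSK4 and 289 to 294 CPM in Th17, mostly from the protease gene Ctsw, with Ncr1 and Gzmk at 0. Of these markers 1 was called, the receptor gene Klrd1, which rose (58.2 and 60.2 CPM with PAM3CSK4, 44.1 and 41.9 CPM in Th17). Gamma-delta T cell markers summed to 0.904 to 1.80 CPM with PAM3CSK4 and 0.929 to 1.35 CPM in Th17, and red cell and platelet markers to 0.471 to 0.814 CPM with PAM3CSK4 and 0.484 to 0.929 CPM in Th17, with all 4 globin genes at 0. Stromal markers summed to 173 to 184 CPM with PAM3CSK4 and 192 to 237 CPM in Th17, almost all from Pecam1 and Pdpn, with Dcn at 0. Both were called: Pdpn rose (log2 fold change of PAM3CSK4 over Th17 0.82; 1.24 and 0.52 without Th17 replicates 1 and 2) and Pecam1 fell (-0.49), a call that ended without PAM3CSK4 replicate 4 (-0.41, edgeR adjusted p = 0.0922) and without Th17 replicate 2 (-0.27, edgeR adjusted p = 0.190). The part of other cell types in the results was not tested.

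Many genes differed by a small amount between the PAM3CSK4 and the Th17 libraries. A gene counts as called where edgeR's quasi-likelihood test gave an adjusted p below 0.05 (Benjamini-Hochberg, all tested genes), and 1162 of 11629 genes (9.99%) were called. Of these, 606 genes (5.21%) rose and 556 (4.78%) fell. The median called rise was 1.36-fold and the median called fall was also 1.36-fold, and only 48 genes (0.413%) rose and 68 (0.585%) fell by 2-fold or more. Calls numbered 594 without PAM3CSK4 replicate 3, 387 without PAM3CSK4 replicate 4, 938 without Th17 replicate 1 and 361 without Th17 replicate 2. Changes of 2-fold or more were 30 rises and 31 falls without PAM3CSK4 replicate 4, 73 rises and 83 falls without Th17 replicate 1, and 20 rises and 23 falls without Th17 replicate 2. The median log2 fold change over all tested genes was -0.0024. The median standard error of the log2 fold change was 0.37 in the lowest of 5 equal groups of genes by level and 0.08 in the highest. Of the large changes, 22 of the 48 rises and 47 of the 68 falls lay in the lowest group. The smallest called change was 0.66 on the log2 scale in the lowest group and 0.23 in the highest. In 6158 tested genes (53%) the PAM3CSK4 libraries did not overlap the Th17 libraries, so that a lack of overlap alone was common.

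**Figure D1:**
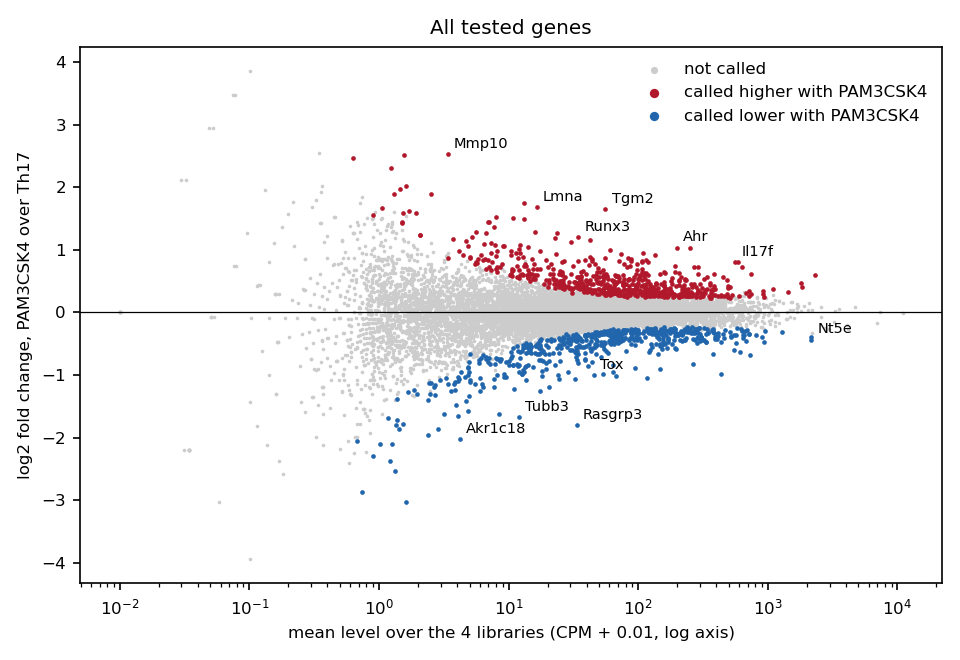
Log2 fold change of PAM3CSK4 over Th17 against the mean level of the 4 libraries (CPM + 0.01, log axis), 1 point per tested gene, with the 606 genes called higher in red, the 556 called lower in blue and uncalled genes in grey. Called genes of high level lie close to 0, and the large changes belong mostly to genes of low level.

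The 2 libraries of a group were not equally far from the other group. Among the 606 genes called higher, Th17 replicate 1 was above Th17 replicate 2 in 454 (74.9%), and among the 556 called lower it was above in 123 (22.1%), against 49.6% of all tested genes, so that Th17 replicate 1 lay nearer the PAM3CSK4 libraries. PAM3CSK4 replicate 4 was above replicate 3 in 66.2% of genes called higher and 44.8% of those called lower, against 51.2% of all tested genes. Counts of called list members below stand against 5.21% of all tested genes called higher and 4.78% called lower. These shares depended on level. In the lowest of the 5 groups by level 1.25% were called higher and 2.32% lower, and in the highest 8.90% and 7.78%. The list counts are not matched for level, so a share somewhat above that of all tested genes can reflect well-expressed members. For gene lists below, the members called when each of the 4 libraries is left out are given in the order PAM3CSK4 replicate 3, PAM3CSK4 replicate 4, Th17 replicate 1 and Th17 replicate 2. Called genes named without a remark kept their call in all 4 of these fits, with a log2 fold change within 1.5 times of the one given.

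The largest rises included a matrix protease gene, a cytokine signalling inhibitor gene and a nuclear lamin gene. Mmp10, which encodes the secreted matrix protease stromelysin 2, had 5.57 and 5.97 CPM in the PAM3CSK4 libraries, against 1.01 and 0.967 CPM in the Th17 libraries, the largest rise among called genes that averaged 5 CPM or more in either group and whose groups do not overlap (log2 fold change 2.52 ± 0.36, edgeR adjusted p = 0.000163). Both PAM3CSK4 libraries stood well above both Th17 libraries, which were nearly equal. Here and below the log2 fold change is PAM3CSK4 over Th17 with its standard error. Cish, a STAT5-induced inhibitor of cytokine signalling, had 18.4 and 22.6 CPM with PAM3CSK4, against 7.85 and 4.16 CPM in Th17 (log2 fold change 1.74 ± 0.21, edgeR adjusted p = 2.85e-05). Lmna, the gene of nuclear lamins A and C, had 21.3 and 28.9 CPM with PAM3CSK4, against 7.18 and 8.51 CPM in Th17 (log2 fold change 1.68 ± 0.19, edgeR adjusted p = 1.7e-05). The rule that picked the largest rises and falls required groups that do not overlap, so their lack of overlap adds no support. The 2 Th17 libraries of Cish differed more from each other than those of Lmna.

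Tgm2, encoding the protein-crosslinking enzyme transglutaminase 2, had 72.3 and 98.0 CPM with PAM3CSK4, against 36.8 and 16.7 CPM in Th17 (log2 fold change 1.65 ± 0.21, edgeR adjusted p = 4.23e-05). Its groups were far apart, but the 2 Th17 libraries differed more than 2-fold and the call ended with robust estimation of the spread (edgeR adjusted p = 0.0646). Casr, the calcium-sensing receptor gene, had 9.88 and 14.1 CPM with PAM3CSK4, against 5.40 and 2.80 CPM in Th17 (log2 fold change 1.52 ± 0.27, edgeR adjusted p = 0.00124). Gpr55, a receptor for lysophospholipids, had 10.3 and 10.2 CPM with PAM3CSK4, against 3.29 and 4.25 CPM in Th17 (log2 fold change 1.45 ± 0.23, edgeR adjusted p = 0.000417). Its 2 PAM3CSK4 libraries were nearly identical. The semaphorin gene Sema4a (1.44 ± 0.21), the heparan sulfate proteoglycan gene Sdc4 (1.28 ± 0.16) and the lysophospholipid transporter gene Mfsd2a (1.27 ± 0.22) also rose by more than 2-fold.

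The rise of 1 cytokine gene depended on a single library for its call. Il10, the gene of the anti-inflammatory cytokine IL-10, had 24.6 and 42.3 CPM with PAM3CSK4, against 18.1 and 9.09 CPM in Th17 (log2 fold change 1.28 ± 0.23, edgeR adjusted p = 0.00131). PAM3CSK4 replicate 4 had the highest value and Th17 replicate 2 the lowest. Without PAM3CSK4 replicate 4 the call ended (log2 fold change 0.84, edgeR adjusted p = 0.0579).

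The largest falls are given among called genes that averaged 5 CPM or more in either group and whose groups do not overlap. They were led by an enzyme of steroid metabolism and a Ras activator. Called genes outside this rule fell further, down to -3.03 on the log2 scale. Akr1c18, which encodes the progesterone-inactivating 20-alpha-hydroxysteroid dehydrogenase, had 1.80 and 1.45 CPM with PAM3CSK4, against 5.07 and 8.51 CPM in Th17 (log2 fold change -2.03 ± 0.32, edgeR adjusted p = 0.000398). Rasgrp3, an exchange factor that activates Ras downstream of diacylglycerol, had 14.3 and 15.5 CPM with PAM3CSK4, against 38.6 and 65.9 CPM in Th17 (log2 fold change -1.81 ± 0.18, edgeR adjusted p = 5.99e-06). The neuronal beta-tubulin gene Tubb3 had 5.49 and 5.97 CPM with PAM3CSK4, against 14.8 and 22.0 CPM in Th17 (log2 fold change -1.67 ± 0.20, edgeR adjusted p = 2.75e-05). In all 3 genes the PAM3CSK4 libraries were close to each other, while the Th17 libraries spread more widely. Pid1, encoding a phosphotyrosine-binding adaptor (-1.63 ± 0.24), the synaptic vesicle protein gene Sv2c (-1.58 ± 0.24), Fam26f (-1.42 ± 0.25), the tumour suppressor candidate gene Lzts2 (-1.25 ± 0.15) and the semaphorin receptor gene Plxnb1 (-1.20 ± 0.16) fell by more than 2-fold. None of these 5 is a member of the fixed gene lists.

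**Figure D2:**
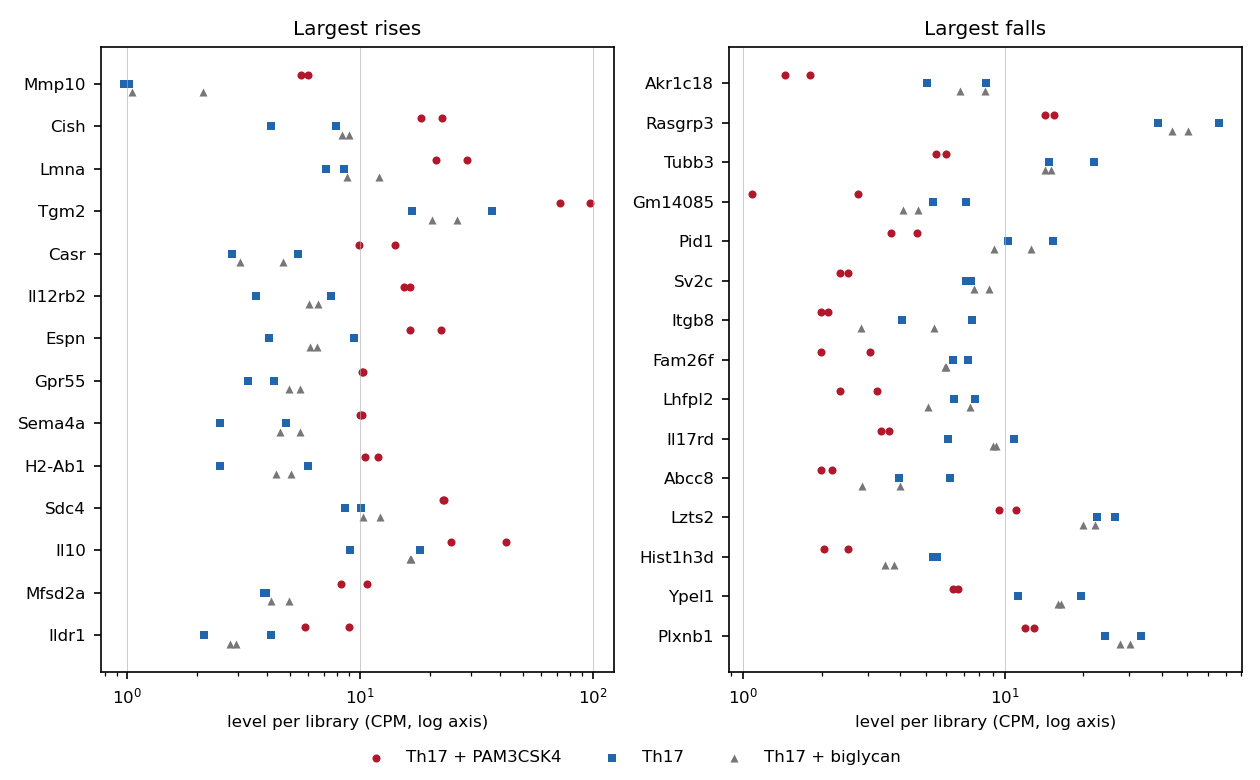
Level per library in CPM on a log axis for the largest rises (left) and the largest falls (right) shown among called genes that averaged 5 CPM or more in either group and whose groups do not overlap, with Th17 + PAM3CSK4 as circles, Th17 as squares and Th17 + biglycan as triangles. The 2 PAM3CSK4 libraries lie to one side of both Th17 libraries in every gene, which the selection required, and the biglycan libraries were not used in the selection.

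The Th17 cytokines and several of the factors around them were higher with PAM3CSK4. Il17f had 673 and 758 CPM in the PAM3CSK4 libraries, against 462 and 358 CPM in the Th17 libraries (log2 fold change 0.80 ± 0.10, edgeR adjusted p = 3.02e-05, a 1.74-fold rise). Il17a had 126 and 179 CPM with PAM3CSK4, against 95.8 and 77.2 CPM in Th17 (log2 fold change 0.81 ± 0.13, edgeR adjusted p = 0.000392). The groups did not overlap in either gene. Without PAM3CSK4 replicate 4, the higher of its 2 libraries, the log2 fold change of Il17a was 0.54 (edgeR adjusted p = 0.0134). In the deposited RPKM values, which are per length, Il17f averaged 386 with PAM3CSK4 and 214 in Th17, and Il17a averaged 81.1 with PAM3CSK4 and 44.1 in Th17, so that Il17f was the more abundant cytokine transcript in both groups.

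Il21, the cytokine gene that acts back on Th17 cells through STAT3, had 336 and 334 CPM with PAM3CSK4, against 229 and 176 CPM in Th17 (log2 fold change 0.72 ± 0.09, edgeR adjusted p = 5.33e-05). Lif, whose product signals through gp130, had 54.6 and 62.4 CPM with PAM3CSK4, against 29.6 and 22.4 CPM in Th17 (log2 fold change 1.16 ± 0.13, edgeR adjusted p = 1.7e-05). Ahr, the ligand-activated transcription factor that marks Th17 cells, had 258 and 274 CPM with PAM3CSK4, against 158 and 101 CPM in Th17 (log2 fold change 1.04 ± 0.13, edgeR adjusted p = 3.02e-05). The groups of these 3 genes were clearly apart, and the 2 libraries with PAM3CSK4 agreed closely in each. Rora, a nuclear receptor gene of the lineage (0.63 ± 0.08), and Bhlhe40, a repressor of Il10 (0.47 ± 0.08), rose as well.

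Ccr6, the chemokine receptor gene that marks Th17 cells, had 12.4 and 10.3 CPM with PAM3CSK4, against 16.0 and 17.0 CPM in Th17 and fell (log2 fold change -0.54 ± 0.16, edgeR adjusted p = 0.0368), a call that ended in each of the 4 leave-one-out fits (edgeR adjusted p = 0.0619 and 0.312 without PAM3CSK4 replicates 3 and 4, 0.0755 and 0.218 without Th17 replicates 1 and 2). The IL-22 gene Il22 and the interferon gamma gene Ifng had 0 counts in all 4 libraries, where 3 counts in 1 library would be 0.235 to 0.290 CPM. The Th17 programme list had 21 tested members. Of them 13 rose and 1 fell, with a median log2 fold change of 0.47, against 5.21% called higher, 4.78% called lower and a median of -0.0024 over all tested genes. Without PAM3CSK4 replicates 3 and 4 and Th17 replicates 1 and 2 in turn, 11, 9, 13 and 10 members rose and none fell. Of 10 tested genes of the aryl hydrocarbon receptor list, which holds Ahr itself, 6 rose and none fell (median 0.45; 6, 3, 6 and 4 rose in the same 4 fits). They included Il10, whose call depended on a single library, as given above. Il10 is also a member of the Th17 programme list, so the counts of these lists overlap. Ahrr, the repressor that the receptor induces, was among them too, at 129 and 139 CPM with PAM3CSK4, against 101 and 71.7 CPM in Th17 (log2 fold change 0.63 ± 0.11, edgeR adjusted p = 0.00123). The log2 fold change of Ahrr was 0.41 without Th17 replicate 2.

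**Figure D3:**
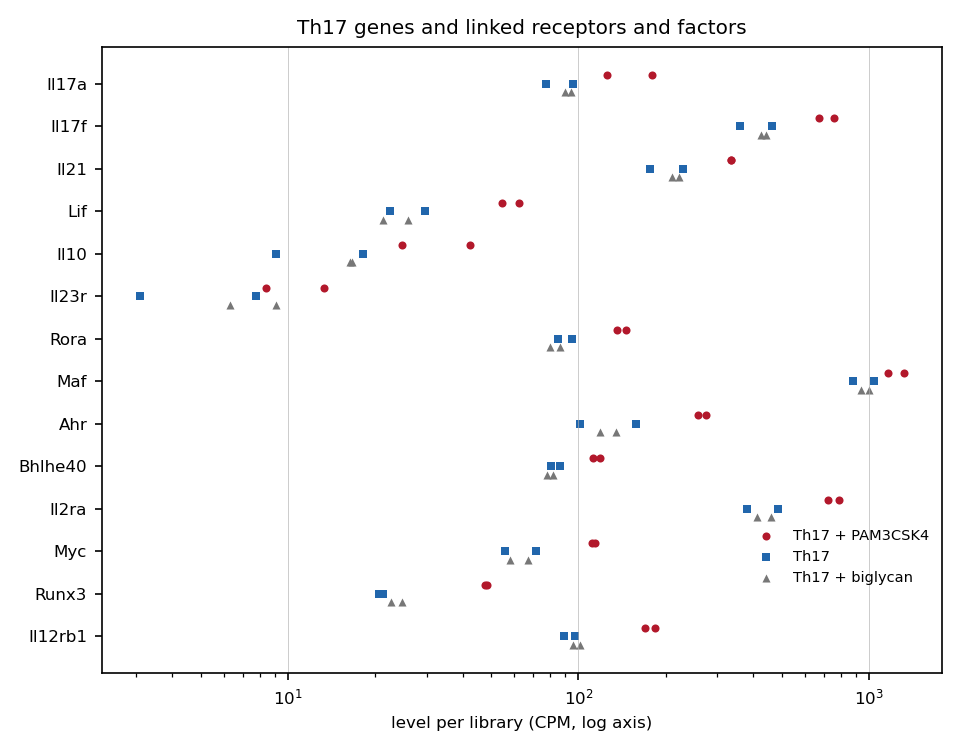
Level per library in CPM on a log axis for genes of the Th17 lineage and linked receptors and factors, with Th17 + PAM3CSK4 as circles, Th17 as squares and Th17 + biglycan as triangles. The PAM3CSK4 libraries lie to the right of both Th17 libraries in each of these genes.

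The receptor genes for PAM3CSK4 and the adaptor gene of the chain were not called. Tlr1 had 18.1 and 16.4 CPM with PAM3CSK4, against 19.0 and 20.7 CPM in Th17, and Tlr2 had 1.96 and 2.71 CPM with PAM3CSK4, against 2.11 and 2.03 CPM in Th17. Tlr6 had 6.43 and 5.16 CPM with PAM3CSK4, against 8.70 and 6.19 CPM in Th17, and the adaptor gene Myd88 had 69.0 and 64.9 CPM with PAM3CSK4, against 60.2 and 51.1 CPM in Th17. The tests of these 4 genes did not pass (edgeR adjusted p = 0.389 for Tlr1, 0.839 for Tlr2, 0.371 for Tlr6 and 0.107 for Myd88). Of 28 tested members of the chain from TLR2 to MAP kinases, 3 rose (10.7%) and 1 fell (3.57%), against 5.21% called higher and 4.78% called lower over all tested genes (median 0.06), and 2, 1, 3 and 0 rose in the fits without PAM3CSK4 replicates 3 and 4 and Th17 replicates 1 and 2. The member that fell was Peli1, an E3 ubiquitin ligase of the IRAK complex, at 193 and 193 CPM with PAM3CSK4, against 261 and 265 CPM in Th17 (log2 fold change -0.45 ± 0.09, edgeR adjusted p = 0.00248), and it fell in all 4 of those fits.

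NF-kB subunits, inhibitors and target genes rose in part. Nfkbia, the gene of IkBa, which NF-kB itself induces, had 116 and 119 CPM with PAM3CSK4, against 79.4 and 73.5 CPM in Th17 (log2 fold change 0.62 ± 0.08, edgeR adjusted p = 4.22e-05). Nfkb2, the p100 subunit gene, had 128 and 113 CPM with PAM3CSK4, against 81.0 and 84.9 CPM in Th17 (log2 fold change 0.54 ± 0.09, edgeR adjusted p = 0.000613). The groups did not overlap in either gene, and Rela, the p65 subunit gene, rose by a similar amount (0.45 ± 0.08). Of 15 tested subunits and inhibitors 6 rose and none fell (median 0.22), and without PAM3CSK4 replicates 3 and 4 and Th17 replicates 1 and 2 in turn 3, 5, 4 and 3 rose. Of 24 tested target genes 8 rose and none fell (median 0.29), and 5, 3, 5 and 4 rose in those fits. Among them were the cytokine gene Tnf at 62.5 and 64.7 CPM with PAM3CSK4, against 44.0 and 42.2 CPM in Th17 (log2 fold change 0.56 ± 0.09, edgeR adjusted p = 0.000427), the adhesion receptor gene Cd44 (0.61 ± 0.08) and the survival gene Bcl2l1 (0.58 ± 0.10).

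Several AP-1 genes rose, and regulators of Ras moved in both directions. Among all tested genes, 5.21% were called higher and 4.78% lower. Jun had 108 and 139.6 CPM with PAM3CSK4, against 79.3 and 65.0 CPM in Th17 (log2 fold change 0.78 ± 0.11, edgeR adjusted p = 0.000118), and the AP-1 partner gene Fosl2 rose by 0.65 ± 0.09. Srf, the serum response factor gene, had 125 and 122 CPM with PAM3CSK4, against 86.8 and 78.8 CPM in Th17 (log2 fold change 0.58 ± 0.08, edgeR adjusted p = 9.68e-05). All PAM3CSK4 values of Jun and Srf were above all Th17 values. Of 21 tested AP-1 and immediate early genes 10 rose and none fell (median 0.28), and 6, 4, 8 and 6 rose without PAM3CSK4 replicates 3 and 4 and Th17 replicates 1 and 2 in turn. Dusp2, a nuclear MAP kinase phosphatase gene, rose (0.54 ± 0.09). Rasgrp1, the Ras activator of T cell receptor signalling, had 132 and 120.5 CPM with PAM3CSK4, against 164 and 199 CPM in Th17 and fell like Rasgrp3 (log2 fold change -0.52 ± 0.09, edgeR adjusted p = 0.00112), a call that ended without Th17 replicate 2 (-0.37, edgeR adjusted p = 0.0555). A further activator of this family, Rasgrp4, rose with 11.5 and 9.23 CPM with PAM3CSK4, against 6.25 and 4.84 CPM in Th17 (log2 fold change 0.90 ± 0.21, edgeR adjusted p = 0.0102). Its call ended without PAM3CSK4 replicate 3 (0.73, edgeR adjusted p = 0.149) and without Th17 replicate 2 (0.74, edgeR adjusted p = 0.139). Rasa1, a GTPase-activating protein gene that turns Ras off, fell (-0.29 ± 0.08), a call that ended in each of the 4 fits (edgeR adjusted p = 0.325 and 0.0808 without PAM3CSK4 replicates 3 and 4, 0.133 and 0.139 without Th17 replicates 1 and 2). Of 18 tested genes of MAP kinase and Ras feedback 4 rose and 3 fell (median 0.12), and 2, 2, 4 and 1 rose and 3, 2, 2 and 1 fell in the same 4 fits.

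Targets of IL-2 and IL-6 signalling and several cytokine receptor chains rose. Il2ra, the alpha chain of the IL-2 receptor, had 723 and 786 CPM with PAM3CSK4, against 487 and 379.5 CPM in Th17 (log2 fold change 0.80 ± 0.10, edgeR adjusted p = 2.85e-05). Myc, the growth regulator, had 112 and 114 CPM with PAM3CSK4, against 71.2 and 56.0 CPM in Th17 (log2 fold change 0.82 ± 0.10, edgeR adjusted p = 2.85e-05). The 2 PAM3CSK4 libraries of Myc were nearly equal, and both genes had groups that did not overlap. The cyclin gene Ccnd2 (0.75 ± 0.08) and the cytokine signalling inhibitor gene Socs1 (0.68 ± 0.11) rose too. Of 23 tested IL-2 and STAT5 targets 12 rose and none fell (median 0.32), and of 22 IL-6 and STAT3 targets 12 rose and none fell (median 0.34). Without PAM3CSK4 replicates 3 and 4 and Th17 replicates 1 and 2 in turn, these counts were 5, 7, 8 and 5 for STAT5 and 8, 6, 11 and 8 for STAT3. Of 29 cytokine receptor chains 9 rose and 2 fell (median 0.19), and 5, 5, 9 and 3 rose and 0, 0, 1 and 0 fell in the same 4 fits. The gene of IL-2 itself, Il2, was at 2.27 and 2.26 CPM with PAM3CSK4 and 1.01 and 1.06 CPM in Th17 and was not called (edgeR adjusted p = 0.0851).

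The receptor genes of the Th1 pathway and Runx3 rose, and the genes of T-bet and interferon gamma were not called. Il12rb2, the inducible chain of the IL-12 receptor, had 15.5 and 16.5 CPM with PAM3CSK4, against 7.51 and 3.58 CPM in Th17 (log2 fold change 1.50 ± 0.23, edgeR adjusted p = 0.000264). Il12rb1, the chain that the receptors of IL-12 and IL-23 share, had 169.8 and 183 CPM with PAM3CSK4, against 97.3 and 89.2 CPM in Th17 (log2 fold change 0.92 ± 0.09, edgeR adjusted p = 5.99e-06). Runx3, a factor of Th1 and cytotoxic cells, had 47.6 and 48.3 CPM with PAM3CSK4, against 21.3 and 20.5 CPM in Th17 (log2 fold change 1.20 ± 0.10, edgeR adjusted p = 1.93e-06). The 2 groups were tight and apart in Il12rb1 and Runx3. The T-bet gene Tbx21 was at 0.706 and 0.995 CPM with PAM3CSK4 and 0.929 and 1.45 CPM in Th17 (edgeR adjusted p = 0.652), and Ifng was at 0 as given above. Il23r, the specific chain of the IL-23 receptor, had 13.3 and 8.41 CPM with PAM3CSK4, against 7.77 and 3.09 CPM in Th17 (log2 fold change 0.98 ± 0.30, edgeR adjusted p = 0.0444). Its call ended without PAM3CSK4 replicate 3 (0.60, edgeR adjusted p = 0.429) and without Th17 replicate 2 (0.49, edgeR adjusted p = 0.447), and its log2 fold change was 1.82 without Th17 replicate 1. Of 14 tested Th1 genes, which include both IL-12 receptor chains, 4 rose and none fell (median 0.04), and 3, 3, 4 and 3 rose in the fits without PAM3CSK4 replicates 3 and 4 and Th17 replicates 1 and 2.

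In the comparison of all libraries, regulatory T cell genes were called in both directions, and inhibitory receptors and ectonucleotidases only lower. Nrp1, a semaphorin coreceptor gene, had 33.5 and 37.9 CPM with PAM3CSK4, against 60.9 and 80.0 CPM in Th17 (log2 fold change -0.98 ± 0.12, edgeR adjusted p = 3.02e-05). Nt5e, which encodes the ectonucleotidase CD73, had 1799 and 1878 CPM with PAM3CSK4, against 2502 and 2476 CPM in Th17 (log2 fold change -0.44 ± 0.08, edgeR adjusted p = 0.00156), and Lag3, an inhibitory receptor gene that is not on the regulatory T cell list, fell as well (-0.57 ± 0.10). Both PAM3CSK4 libraries lay below both Th17 libraries in these genes. Foxp3 was at 1.57 and 2.08 CPM with PAM3CSK4 and 2.53 and 3.09 CPM in Th17 and was not called (edgeR adjusted p = 0.260), nor was the Th2 factor gene Gata3 (14.1 and 14.0 CPM with PAM3CSK4, 14.9 and 18.5 CPM in Th17, edgeR adjusted p = 0.319). Among all tested genes, 5.21% were called higher and 4.78% lower. The call of Il10 ended without PAM3CSK4 replicate 4, as given above. Of 16 tested regulatory T cell genes 3 rose (18.75%), among them Il2ra and Il10, and 2 fell (12.5%), Nrp1 and Nt5e (median -0.10). Without PAM3CSK4 replicates 3 and 4 and Th17 replicates 1 and 2 in turn, 3, 2, 3 and 3 of them rose and 2, 2, 4 and 2 fell. Of 13 tested inhibitory receptors and ectonucleotidases, which include Lag3 and Nt5e, none rose and 3 fell (median -0.10), and 0, 0, 1 and 0 rose and 2, 3, 3 and 2 fell in those fits. Tox, a factor of follicular helper and exhausted T cells, had 30.3 and 30.7 CPM with PAM3CSK4, against 59.9 and 62.1 CPM in Th17 (a 2.00-fold fall, edgeR adjusted p = 9.4e-06).

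Promoter sequence is shown for 6 of the genes above, chosen because each holds a motif of one of the pathways described. The windows are the 250 bases before the start of transcription in RefSeq (mouse build GRCm38.p6, which is not the build of the counts), written 5′ to 3′ on the strand of the gene with the motif in capitals.
Mmp10, chr9:7502092-7502341, plus strand: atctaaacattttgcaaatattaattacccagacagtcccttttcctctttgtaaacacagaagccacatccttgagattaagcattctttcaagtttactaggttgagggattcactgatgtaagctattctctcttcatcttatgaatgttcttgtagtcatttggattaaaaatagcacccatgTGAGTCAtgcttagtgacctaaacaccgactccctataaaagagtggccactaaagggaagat
Il17a, chr1:20730655-20730904, plus strand: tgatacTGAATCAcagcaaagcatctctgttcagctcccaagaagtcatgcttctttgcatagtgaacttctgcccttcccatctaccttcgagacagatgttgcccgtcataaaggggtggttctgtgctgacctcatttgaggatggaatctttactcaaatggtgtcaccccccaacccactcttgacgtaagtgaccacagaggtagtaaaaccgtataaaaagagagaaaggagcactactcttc
Nfkbia, chr12:55492648-55492897, minus strand: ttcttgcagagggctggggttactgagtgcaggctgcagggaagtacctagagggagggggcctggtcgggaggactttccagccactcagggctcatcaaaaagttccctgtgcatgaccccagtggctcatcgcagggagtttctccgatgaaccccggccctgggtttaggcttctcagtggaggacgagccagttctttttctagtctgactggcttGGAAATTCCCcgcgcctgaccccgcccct
Sdc4, chr2:164443189-164443438, minus strand: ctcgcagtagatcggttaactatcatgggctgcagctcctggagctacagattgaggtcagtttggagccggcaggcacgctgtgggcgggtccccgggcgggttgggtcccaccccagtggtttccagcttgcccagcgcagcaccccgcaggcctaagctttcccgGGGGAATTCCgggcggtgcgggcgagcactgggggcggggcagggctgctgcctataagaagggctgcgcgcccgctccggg
Il2ra, chr2:11642542-11642791, plus strand: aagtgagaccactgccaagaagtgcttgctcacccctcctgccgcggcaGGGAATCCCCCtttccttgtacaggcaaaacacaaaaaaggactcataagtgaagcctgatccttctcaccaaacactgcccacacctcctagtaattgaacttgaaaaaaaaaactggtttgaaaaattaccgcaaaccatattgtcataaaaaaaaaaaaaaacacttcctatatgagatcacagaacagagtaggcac
Il12rb2, chr6:67376189-67376438, minus strand: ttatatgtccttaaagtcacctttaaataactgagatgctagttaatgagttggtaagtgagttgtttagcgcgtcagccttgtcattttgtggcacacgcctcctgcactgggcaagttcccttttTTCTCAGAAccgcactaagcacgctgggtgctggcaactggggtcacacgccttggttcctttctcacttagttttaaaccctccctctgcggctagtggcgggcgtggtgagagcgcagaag
The capitals mark AP-1 (TGANTCA) at -63 in Mmp10 and -244 in Il17a, NF-kB at -29 in Nfkbia, at -82 in Sdc4 and in a pair of overlapping matches at -201 and -200 in Il2ra, and STAT (TTCNNNGAA) at -123 in Il12rb2, with positions counted from the start of transcription. All 5 motifs (also E-box, CACGTG, and ISRE) were searched on both strands, and a match may overlap another motif. AP-1 was found in 6.36% of 645 windows of genes called higher, 4.29% of 606 windows of genes called lower, 4.22% of 11800 windows of all tested genes and 6.75% of all 32851 windows in the table. The NF-kB motif was found in 7.29% of windows of genes called higher, 4.79% of those called lower, 4.54% of all tested and 3.90% of all windows. STAT was found in 6.51% of windows of genes called higher, 4.95% of those called lower, 5.89% of all tested and 7.02% of all windows. E-box was found in 7.75, 5.12, 8.44 and 6.02% in this order, and ISRE in 2.48, 3.63, 2.62 and 2.98%. Symbols matched for 485 of 606, 458 of 556 and 9277 of 11629 genes, and a match is a description of these letters only.

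Several genes of sugar and lipid metabolism rose. The shares over all tested genes were 5.21% called higher and 4.78% called lower. Hk2, the inducible hexokinase that starts glycolysis, had 16.9 and 16.4 CPM with PAM3CSK4, against 8.02 and 7.74 CPM in Th17 (log2 fold change 1.08 ± 0.17, edgeR adjusted p = 0.000368), and Pfkl, the liver-type phosphofructokinase, had 116 and 99.6 CPM with PAM3CSK4, against 75.3 and 75.0 CPM in Th17 (log2 fold change 0.52 ± 0.09, edgeR adjusted p = 0.000645). Scd1, a desaturase that makes monounsaturated fatty acids, had 82.7 and 61.5 CPM with PAM3CSK4, against 47.2 and 31.7 CPM in Th17 (log2 fold change 0.87 ± 0.15, edgeR adjusted p = 0.000961). In each of these genes the PAM3CSK4 values were above the Th17 values. Fasn, the fatty acid synthase gene (0.73 ± 0.08) and the sterol synthesis genes Lss (0.53 ± 0.09) and Sqle (0.43 ± 0.08) rose as well. Of 27 glycolysis and hypoxia genes 12 rose (median 0.29), of 23 cholesterol genes 12 rose (median 0.32) and of 15 fatty acid genes 7 rose (median 0.30), and none fell in the 3 lists. Without PAM3CSK4 replicates 3 and 4 and Th17 replicates 1 and 2 in turn, 6, 4, 13 and 5 glycolysis genes, 3, 5, 12 and 3 cholesterol genes and 4, 5, 6 and 2 fatty acid genes rose. Of 28 oxidative phosphorylation genes none rose and 1 fell (median -0.05), and none fell in those 4 fits.

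Genes of ribosome assembly rose by smaller amounts. Wdr43, an assembly factor of the small subunit, had 128 and 124 CPM with PAM3CSK4, against 93.8 and 92.4 CPM in Th17 (log2 fold change 0.43 ± 0.08, edgeR adjusted p = 0.000940), and Nop2, a methyltransferase of ribosomal RNA, had 75.5 and 76.2 CPM with PAM3CSK4, against 51.9 and 58.0 CPM in Th17 (log2 fold change 0.47 ± 0.09, edgeR adjusted p = 0.00140). The 2 groups did not overlap in either gene. The list counts that follow stand against 5.21% of all tested genes called higher and 4.78% called lower. Of 33 ribosome biogenesis genes 15 rose and none fell (median 0.29), and 6, 7, 13 and 4 rose without PAM3CSK4 replicates 3 and 4 and Th17 replicates 1 and 2 in turn. Slc7a5, the transporter gene for large neutral amino acids (0.56 ± 0.10), Tfrc, the transferrin receptor gene (0.51 ± 0.08), and Hspa5, the main chaperone gene of the endoplasmic reticulum (0.52 ± 0.08), also rose. Of 23 tested genes of amino acid supply and ATF4, which include Slc7a5, 6 rose and 1 fell (median 0.20), and 4, 1, 6 and 2 rose and none fell in the same 4 fits. The member that fell was the amino acid transporter gene Slc1a4 (-0.57 ± 0.16), with edgeR adjusted p = 0.216 and 0.0927 without PAM3CSK4 replicates 3 and 4, 0.190 and 0.0838 without Th17 replicates 1 and 2. Of 23 genes of nucleotide and one-carbon synthesis 2 rose and 2 fell (median 0.04), with 0, 2, 1 and 1 rising and 2, 0, 1 and 0 falling in those fits. Of 10 genes of the Myc network 1 rose, Myc itself, and 1 fell (median 0.03), with 1, 1, 1 and 1 rising and 1, 1, 1 and 0 falling in those fits.

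Histone genes and several tubulin genes fell. Hist1h3b, a replication-dependent histone H3 gene, had 14.0 and 10.0 CPM with PAM3CSK4, against 27.5 and 21.5 CPM in Th17 (log2 fold change -1.02 ± 0.17, edgeR adjusted p = 0.000530), and the H4 gene Hist1h4h had 63.2 and 63.3 CPM with PAM3CSK4, against 97.7 and 95.5 CPM in Th17 (log2 fold change -0.61 ± 0.08, edgeR adjusted p = 9.26e-05). The PAM3CSK4 libraries were below the Th17 libraries in both. Of 28 tested histone genes 16 fell and none rose, with log2 fold changes from -1.02 to -0.05 (median -0.51), against 4.78% of all tested genes called lower. Without PAM3CSK4 replicates 3 and 4 and Th17 replicates 1 and 2 in turn, 13, 3, 8 and 7 fell. These transcripts mostly lack a poly(A) tail, the libraries were made with an mRNA kit, and near-identical histone copies can share reads, which makes the values of single copies uncertain. Of 30 cell cycle and mitosis genes 4 fell and none rose (median -0.23); 4, 0, 7 and 0 fell in those 4 fits, and log2 fold changes in the comparison of all libraries ran from -0.38 to -0.09. Of 13 tubulin genes 5 fell and 1 rose, with 4, 3, 4 and 4 falling in those fits. Tubb2b had 18.9 and 20.0 CPM with PAM3CSK4, against 33.1 and 42.1 CPM in Th17 (log2 fold change -0.95 ± 0.13, edgeR adjusted p = 9.68e-05), and Tubb2a also fell (-0.58 ± 0.10).

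**Figure D4:**
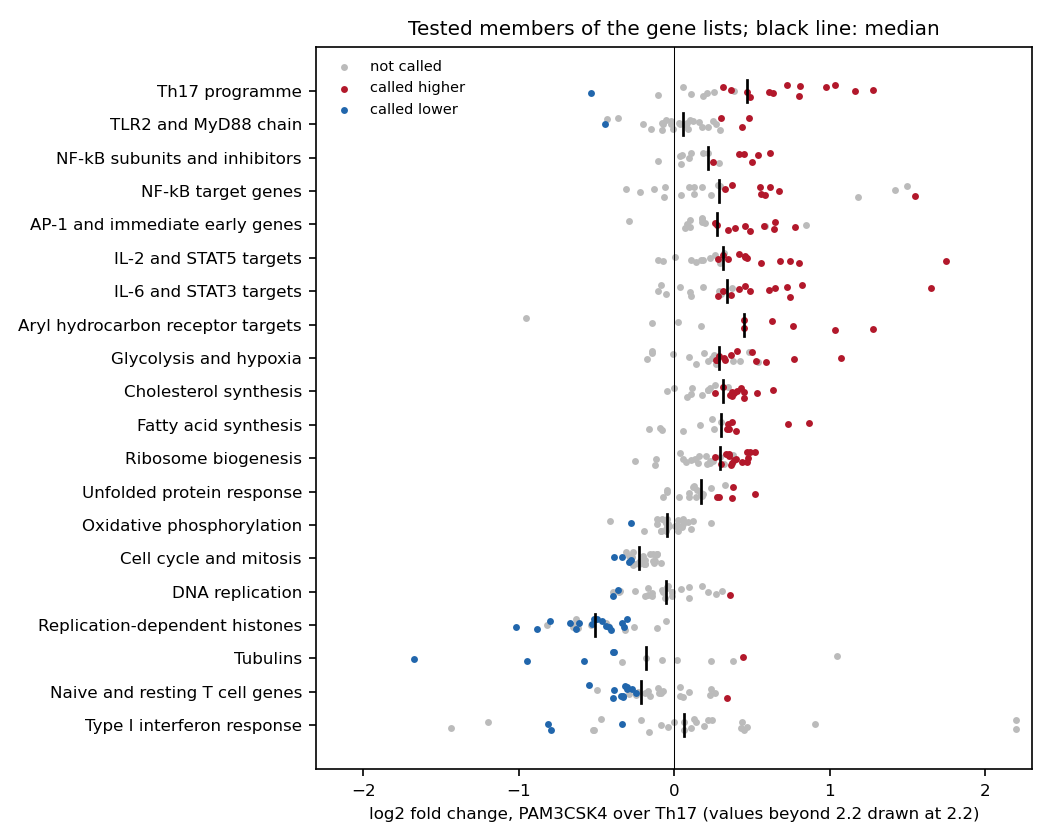
Log2 fold change of PAM3CSK4 over Th17 for the tested members of the gene lists, 1 point per gene, with called higher in red, called lower in blue, uncalled in grey and the list's median as a black line; values beyond 2.2 are drawn at 2.2. All 28 histone genes and all 30 cell cycle genes lie below 0, and the medians of the TLR2 chain and of oxidative phosphorylation lie near 0.

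Several genes of naive and resting T cells fell, in calls mostly lost without PAM3CSK4 replicate 3, PAM3CSK4 replicate 4 or Th17 replicate 2. Of 30 tested members 11 fell and 1 rose (median -0.21), but 1, 0, 9 and 0 fell without PAM3CSK4 replicates 3 and 4 and Th17 replicates 1 and 2 in turn. Lef1, a factor of naive T cells, had 450.1 and 455 CPM with PAM3CSK4, against 569.8 and 615 CPM in Th17 (log2 fold change -0.39 ± 0.09, edgeR adjusted p = 0.0102). Its call ended without PAM3CSK4 replicate 3, PAM3CSK4 replicate 4 or Th17 replicate 2. With each of the 4 libraries left out, its log2 fold change stayed between -0.44 and -0.33. Of 24 activation and costimulation genes 7 rose, Il2ra, Cd44 and Tfrc among them, and 1 fell (median 0.23), with 5, 4, 5 and 4 rising in the fits given above. In bulk RNA, fewer cells of a type and less RNA per cell cannot be told apart.

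Matrix, adhesion and survival genes were split between rises and falls. Among all tested genes, 5.21% were called higher and 4.78% lower. Timp1, a secreted inhibitor of metalloproteases, had 83.3 and 99.9 CPM with PAM3CSK4, against 57.7 and 45.5 CPM in Th17 (log2 fold change 0.82 ± 0.11, edgeR adjusted p = 7.57e-05), while the related Timp2 had 283 and 271 CPM with PAM3CSK4, against 391 and 379.5 CPM in Th17 (log2 fold change -0.48 ± 0.07, edgeR adjusted p = 0.000268). The 2 inhibitors thus moved in opposite directions, each with groups that did not overlap. Ecm1, a secreted matrix protein gene, rose (0.80 ± 0.10) and the metalloprotease gene Adamts6 fell (-0.61 ± 0.08). Of 19 tested matrix and remodelling genes 6 rose and 4 fell (median -0.08), and with each of the 4 libraries left out in the order given above 5, 4, 4 and 5 rose and 3, 2, 4 and 2 fell. Itga3, the alpha chain of a laminin receptor, had 101 and 114 CPM with PAM3CSK4, against 61.7 and 55.8 CPM in Th17 (log2 fold change 0.87 ± 0.09, edgeR adjusted p = 6.92e-06), and Itgal, the alpha chain of LFA-1, rose by less (0.45 ± 0.08). Of 22 TGF-beta targets and SMAD genes 7 rose and 4 fell, and the repressors of the pathway Tgif1 (-0.51 ± 0.08) and Ldlrad4 (-0.45 ± 0.07) were among those that fell. In the fits without PAM3CSK4 replicates 3 and 4 and Th17 replicates 1 and 2 in turn, 4, 1, 4 and 2 of that list rose and 3, 2, 3 and 3 fell. Beside the survival gene Bcl2l1, the death-promoting gene Bbc3 rose (0.56 ± 0.12). Of 19 tested p53 targets 4 rose and 3 fell (median 0.19), and without PAM3CSK4 replicates 3 and 4 and Th17 replicates 1 and 2 in turn 1, 1, 1 and 2 rose and 2, 3, 2 and 2 fell. Sesn1 (-0.66 ± 0.08) and Ccng2 (-0.40 ± 0.08) were among those that fell. Beside Bbc3, the cell cycle inhibitor gene Cdkn1a (0.73 ± 0.18) and the nuclease gene Aen (0.57 ± 0.15) rose, and both calls ended in each of the 4 fits. The edgeR adjusted p of Cdkn1a was 0.0649 and 0.120 without PAM3CSK4 replicates 3 and 4, 0.0637 and 0.0858 without Th17 replicates 1 and 2. That of Aen was 0.0678 and 0.131 without PAM3CSK4 replicates 3 and 4, 0.0738 and 0.101 without Th17 replicates 1 and 2.

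The interferon, unfolded protein response and DNA replication lists are read against the 5.21% of all tested genes called higher and 4.78% called lower. Of 28 tested genes of the type I interferon response none rose and 3 fell, 10.7% of them (median 0.07), and 1, 0, 3 and 0 fell without PAM3CSK4 replicates 3 and 4 and Th17 replicates 1 and 2 in turn. Of 21 genes of the unfolded protein response 5 rose (23.8%), Hspa5 among them, and none fell (median 0.17), with 4, 1, 3 and 1 rising in those fits. Of 28 DNA replication genes 1 rose and 2 fell (median -0.05), with 0, 1, 1 and 0 rising and 5, 0, 2 and 0 falling in those fits.

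PAM3CSK4 was compared directly with biglycan, a matrix proteoglycan described as an endogenous ligand of TLR2; the dose of biglycan is not clear from the series text. With PAM3CSK4, 658 genes (5.66%) were higher and 684 (5.88%) lower than with biglycan, while biglycan against Th17 gave 0 called genes (0%) in edgeR's quasi-likelihood test, 507 genes (4.36%) at an unadjusted p under 0.05 and 0 called genes in DESeq2. Il17f had 673 and 758 CPM with PAM3CSK4, against 441 and 426 CPM with biglycan (log2 fold change 0.72 ± 0.10, edgeR adjusted p = 8.61e-05). Ahr had 258 and 274 CPM with PAM3CSK4, against 118 and 135 CPM with biglycan (1.07 ± 0.13, edgeR adjusted p = 3.15e-05). Rasgrp3 had 14.3 and 15.5 CPM with PAM3CSK4, against 50.1 and 43.5 CPM with biglycan (-1.66 ± 0.18, edgeR adjusted p = 2.15e-05). These comparisons share the PAM3CSK4 libraries with the comparison against Th17, in which the genes were called. Without PAM3CSK4 replicates 3 and 4 and biglycan replicates 7 and 8 in turn, 350, 231, 171 and 305 genes were higher and 427, 218, 189 and 320 lower with PAM3CSK4 than with biglycan. Biglycan against Th17 gave 1 called gene without Th17 replicate 1, 4 without Th17 replicate 2, 2 without biglycan replicate 7 and 6 without biglycan replicate 8.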

How the data were processed

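The authors deposited raw counts. Per the submitters' processing notes, Bowtie2 and HTSeq were used with mouse build mm9. Tool versions, strandedness and gene models were not given in the sources used here. Deposited RPKM values, per length and library, were used to compare levels between genes. The percent of reads in ribosomal and mitochondrial RNA comes from the deposited mapping tables, per the file headers. The 5 summary lines of the count table, which hold no gene, were not used, and of these, the line of reads that HTSeq did not place uniquely took 75.5 to 76.8% of the table's total in the 4 libraries. The biglycan columns carry other numbers than the titles, and the titles are used here.

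Counts were fitted in R 4.3.3 with edgeR 4.0.16: filterByExpr by group, TMM factors, and 1 quasi-likelihood model of 4 group means over all 8 libraries (4 residual and 15.9 prior degrees of freedom, biological coefficient of variation 6.19%). Levels are CPM. The standard error of a log2 fold change is its size over the square root of F. An exact permutation test of 2 against 2 libraries cannot go below p = 0.333 and was not used. On simulated counts for PAM3CSK4 against Th17 (11328 genes) the fit recovered 99% of 2-fold and 87% of 1.5-fold changes, with 10 false calls. Each size of change was given to 100 genes, all of 5 CPM or more, and the simulated spread followed level alone. Recovery of changes in genes of lower level, or of larger spread than their level gives, was not tested. The 2 libraries of a group differed by more than sampling noise (chi-square per degree of freedom 4.54 with PAM3CSK4, 4.56 in Th17).

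The members and the gene lists were chosen with earlier results of these data known. The rule for named genes allowed the 15 largest rises and falls of called genes that averaged 5 CPM or more in either group and whose groups do not overlap, the most abundant called genes, up to 3 called members each way per list by p, 2 uncalled members where a list had few calls, and 23 genes of interest such as Il17a and Tlr2. Not every gene allowed by this rule is named. Alternatives were DESeq2 1.42.0 and its size factors, other filters, other sets of libraries, robust estimation and leaving out each library.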

Additional observations from a re-analysis of the deposited data

How the results depend on the processing

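Of 178 called genes that the naming rule allows, 81 kept their call in every alternative that gave an adjusted p and 97 lost it in at least 1, while none changed direction. DESeq2 gave no adjusted p for Mmp10. Calls of PAM3CSK4 against Th17 numbered 1141 with DESeq2's size factors in edgeR, 777 with DESeq2, 1435 without a filter on low counts, 1141 with a stricter filter, 1390 with only the 4 libraries compared, 1593 without the naive libraries and 1159 with robust estimation, against 1162 as reported. Larger moves came with DESeq2, which gave 30 rises and 36 falls of 2-fold or more and 432 genes higher with PAM3CSK4 than with biglycan. The stricter filter left 43 falls of 2-fold or more, with fewer genes tested. Without a filter, biglycan against Th17 gave 29 called genes. Leaving out 1 library gave 361 to 938 calls, 212 to 467 rises, 149 to 471 falls, 20 to 73 rises and 23 to 83 falls of 2-fold or more, 1 to 6 calls of biglycan against Th17, and 171 to 350 higher and 189 to 427 lower genes for PAM3CSK4 against biglycan. In these fits the lone library of a group is assumed to vary like the others. The log2 fold change of Tlr2, which was not called, ranged from -0.079 without PAM3CSK4 replicate 4 to 0.39 without PAM3CSK4 replicate 3. Of 45 list counts of 3 or more, 38 stayed within 1.5 times with DESeq2, 25 and 11 without PAM3CSK4 replicates 3 and 4, and 34 and 14 without Th17 replicates 1 and 2. The causes were not tested. No paired analysis was possible because the groups compared share no replicate number. Depth limits single genes: 3 counts in 1 library are 0.235 to 0.290 CPM.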

Other observations

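A gene of antigen presentation stood among the largest rises, from a list of MHC class II genes added after the values were seen. H2-Ab1, the beta chain of the class II molecule I-A, had 10.5 and 11.9 CPM with PAM3CSK4, against 5.99 and 2.51 CPM in Th17 (log2 fold change 1.37 ± 0.26, edgeR adjusted p = 0.00175) and 5.05 and 4.34 CPM with biglycan. The PAM3CSK4 libraries were close together and above the biglycan libraries too, while a place above the Th17 libraries was required by the selection. Its log2 fold change was 2.15 without Th17 replicate 1 and 0.90 without Th17 replicate 2, and it was called in both fits. The invariant chain gene Cd74, which chaperones class II molecules, had 9.96 and 7.96 CPM with PAM3CSK4, against 6.08 and 5.51 CPM in Th17, and was not called (edgeR adjusted p = 0.0690). Of 8 tested genes of the list 1 rose, H2-Ab1, and none fell (median log2 fold change -0.11). Among markers of other cells that present antigen, those of B cells summed to 4.08 to 4.43 CPM with PAM3CSK4 and 2.80 to 3.55 CPM in Th17. The only B cell marker that could be tested, Bank1, had 1.33 and 2.17 CPM with PAM3CSK4, against 2.45 and 1.93 CPM in Th17, and was not called (edgeR adjusted p = 0.637). Myeloid and dendritic cell markers summed to 204 CPM in both PAM3CSK4 libraries and 229 to 236 CPM in Th17, and the part of these cells was not tested.

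Small nucleolar RNAs, which guide the modification of ribosomal RNA, had few called members, in a list that was also added after the values were seen. Of 78 tested members 6 fell (7.69%, against 4.78% of all tested genes) and none rose (median -0.19), and 4, 3, 1 and 6 fell without PAM3CSK4 replicates 3 and 4 and Th17 replicates 1 and 2 in turn. Snord49b had 1.80 and 1.27 CPM with PAM3CSK4, against 5.83 and 3.67 CPM in Th17 (log2 fold change -1.62 ± 0.32, edgeR adjusted p = 0.00263), with edgeR adjusted p = 0.0566 without PAM3CSK4 replicate 4 and 0.0629 without Th17 replicate 1. With biglycan it had 0.841 and 1.16 CPM, and PAM3CSK4 against biglycan was not called (edgeR adjusted p = 0.424). Such short RNAs are captured only in part by an mRNA kit, and many lie within introns of host genes.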
